A study of Mus musculus with 3 samples.

Results

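Siglecg and St6gal1 were followed in bone marrow of castrated mice, each by a single spot of a two-colour microarray. Their spots were chosen as those annotated with exactly 1 gene, being Siglecg or St6gal1, that had a value on all 3 arrays, and the pair was picked with earlier results of this same comparison in view. These 2 genes are 2 of the 3462 genes, and their 2 spots 2 of the 6039 spots, with a value on every array. Each array set the marrow RNA of 1 castrated C57BL/6 mouse that carried a testosterone pellet against that of its matched castrated mouse with a placebo pellet (n = 3 pairs, named T1, T2 and T3). Castration took place at 7 weeks of age, the pellets (12.5 mg, releasing over 60 days) acted for 4 weeks, and the mice were 17 weeks old. Both mice of a pair were castrated, so every value compares testosterone with placebo after castration, and no intact mouse enters it. The testosterone sample carried Cy5 on T1 and T3, and the dyes were swapped on T2, where it carried Cy3. The RNA came from pulverized bone, per the labels' protocols, while the labels give bone marrow as the tissue. A ratio carries no level, so the tissue could not be checked through how strongly its markers were expressed, and a change in the number of cells of a type and a change in RNA per cell cannot be told apart.

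Siglec-G, encoded by Siglecg, is a membrane receptor of B lymphocytes that binds sialic acids, the acidic sugars at the tips of glycan chains. Its cytoplasmic tail recruits phosphatases that restrain signals from the B-cell receptor, and it is known for limiting the B-1 class of B cells in mice. St6gal1 encodes the Golgi enzyme that attaches sialic acid in alpha-2,6 linkage to galactose at the ends of N-linked glycans. It thereby makes glycans that Siglec-G and the related receptor CD22 can recognise, and B cells are rich in its product. Liver also expresses the enzyme and releases it into plasma, and several alternative promoters are known for the gene.

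Siglecg had log2 ratios of testosterone to placebo of -1.61 for T1, -1.55 for T2 and -1.66 for T3, where a negative value is read as lower with testosterone, a direction that is likely and not settled. The 3 pairs differed little among themselves as deposited, with a range of 0.113 on the log2 scale. On a linear scale the signal with testosterone was 32.8% of that with placebo for T1, 34.2% for T2 and 31.6% for T3. Were the ratio the other way round, it would be 3.05, 2.92 and 3.16 times that with placebo. The mean was -1.61 ± 0.057 (SD, n = 3), which is 3.04-fold lower with testosterone.

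St6gal1, the enzyme, had log2 ratios of -1.40 for T1, -0.976 for T2 and -0.899 for T3. T1 was the lowest, and T2 and T3 lay close together. The signal with testosterone was 37.9% of that with placebo for T1, 50.8% for T2 and 53.6% for T3, or 2.64, 1.97 and 1.86 times it were the ratio the other way round. The mean was -1.09 ± 0.27 (SD, n = 3), or 2.13-fold lower with testosterone.

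**Figure D1:**
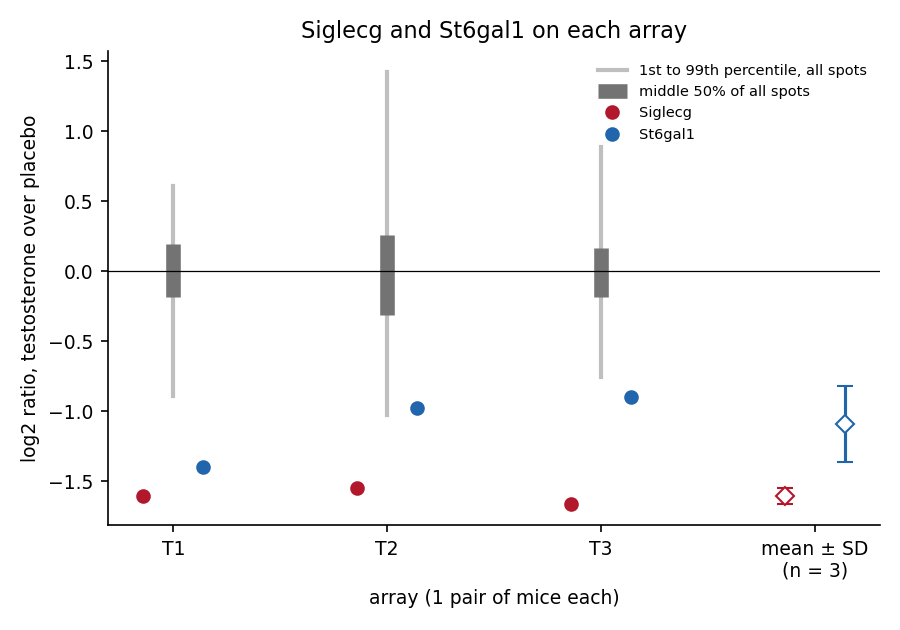
Log2 ratio of testosterone to placebo for Siglecg and St6gal1 on each array, with the mean ± SD over the 3 arrays at the right (open diamonds); grey bars span the middle 50% and grey lines the 1st to 99th percentiles of all 6039 spots. Siglecg lies between -1.66 and -1.55 on the 3 arrays and, as deposited, below St6gal1, which lies between -1.40 and -0.899.

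As deposited, the ratio of the receptor was lower than that of the enzyme on every array, and the values of both genes did not overlap. The difference, Siglecg minus St6gal1, was -0.21 for T1, -0.57 for T2 and -0.76 for T3, with a mean of -0.51 ± 0.28 (SD, n = 3). It was smallest on T1, where St6gal1 was lowest. This order depends on the sign of T2: with that sign turned the difference on T2 was 0.57, with Siglecg above St6gal1, and the mean difference was -0.13 ± 0.67. It would also run the other way on each array if the ratios were of placebo to testosterone. These are differences between ratios to placebo, not between levels of the transcripts.

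Among all spots the 2 genes were near the lower end on each array. Counted from the most negative of 6039 spots, Siglecg ranked 19 for T1, 25 for T2 and 10 for T3. St6gal1 ranked 25 for T1, 72 for T2 and 43 for T3. Its rank on T2 came with a wider spread of that array as a whole, whose spots had a standard deviation of 0.491, against 0.316 on T1 and 0.324 on T3. By the mean ratio Siglecg was number 16 and St6gal1 number 35. Spots that lay at or below -0.899, the highest St6gal1 value, on all 3 arrays numbered 30 (0.497% of those tested), and they named 23 genes. Both spots were among the 171 (2.83% of spots) called by limma (adjusted p under 0.05), 103 of which were lower (1.71% of spots) and 68 higher (1.13%). Nothing is read from these positions and calls, because the 2 genes were chosen from this contrast, and no p is given for them.

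The standard deviation over pairs was, as deposited, smaller for Siglecg than for St6gal1. Siglecg had a standard deviation of 0.057, and 6.69% of spots had a smaller one. Of the 14 spots with a mean within 0.25 of that of Siglecg, itself included, its standard deviation was the smallest, and the median was 0.404. St6gal1 had a standard deviation of 0.269, above that of 74.4% of spots. Among the 30 spots with a mean within 0.25 of its own, their median was 0.258, and St6gal1 held place 17 counted from the smallest. The pair was picked with results of this comparison in view, so nothing is read from these places either. After each array was centred and scaled to the same spread, the order turned, with 0.454 for Siglecg and 0.425 for St6gal1.

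Each gene had 1 spot on the platform, so no second spot on the same array could be set beside it. For scale, the 380 sequences annotated at exactly 2 tested spots differed between their 2 spots by a median of 0.073 in the mean log2 ratio, and 95% of them by at most 0.229. For single arrays this median was 0.068 for T1, 0.123 for T2 and 0.11 for T3. Most of these ratios were near 0, and the 2 such sequences with a mean at or below -1 differed by more on T1, by 0.272 and 0.35, and by 0.12 and 0.179 on T2 and 0.008 and 0.208 on T3. The spot numbers divide into 32 runs of 361. Run means departed from 0 by at most 0.0054 (T1), 0.012 (T2) and 0.054 (T3). Whether the runs are print blocks, and whether each was normalized separately, was not tested. Within its run Siglecg was the second lowest of 202 tested spots on every array. St6gal1 was lowest of 206 in its run on T1, the third lowest on T2 and the second lowest on T3. The run medians were between -0.079 and -0.0075 for Siglecg and between -0.13 and 0.0065 for St6gal1. The spots numbered just before and after St6gal1, which name the kinase Akt2 and the small GTPase Arf3, ran from -0.521 to 0.07, and those beside Siglecg had a value on T1 alone, of -0.039 and 0.12. Where the neighbouring spots had values, these were well above those of the 2 genes.

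The dye orders gave similar values. For Siglecg the mean of T1 and T3, with testosterone in Cy5, was -1.64, and T2, with testosterone in Cy3, had -1.55. For St6gal1 the corresponding values were -1.15 with Cy5 and -0.976 with Cy3. T2 was thus higher than the mean of T1 and T3 by 0.087 for Siglecg and by 0.173 for St6gal1. Weighting both dye orders equally, a choice made after the data were seen, gave -1.59 and -1.06. Over all tested spots the arrays correlated positively as deposited, with Pearson's r of 0.42 between T1 and T2, 0.49 between T1 and T3 and 0.73 between T2 and T3, as a description across 6039 spots that share arrays and normalization. The direction is not settled because its basis is that the series' design calls testosterone the experimental channel. If the deposited T2 values were in truth ratios of Cy5 to Cy3, turning their sign would give means of -0.57 for Siglecg and -0.44 for St6gal1.

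**Figure D2:**
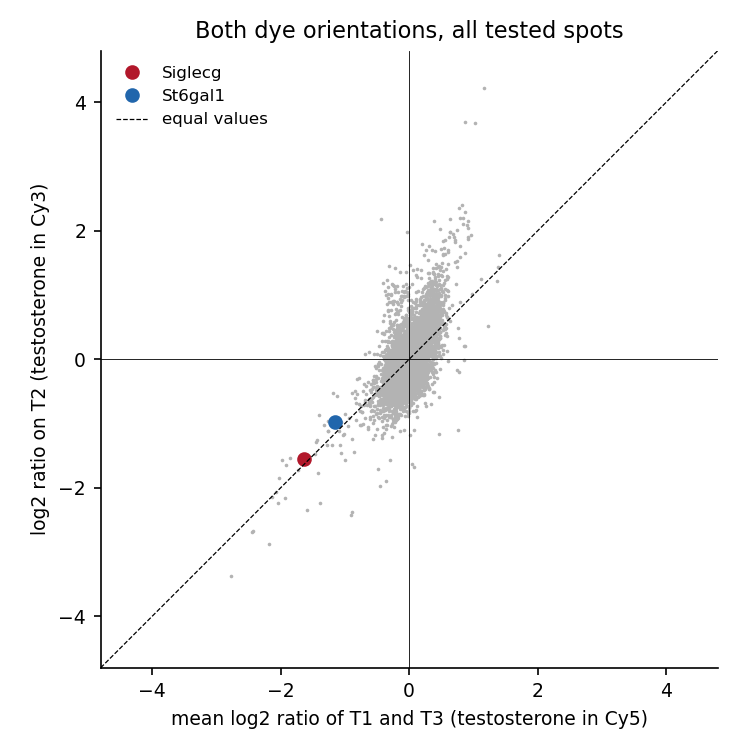
Each point is a tested spot, with the mean log2 ratio of T1 and T3 (testosterone in Cy5) across and the log2 ratio on T2 (testosterone in Cy3) up; the dashed line marks equal values. Siglecg (-1.64 across, -1.55 up) and St6gal1 (-1.15 across, -0.976 up) lie at the lower left, close to the line.

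The other receptors and enzymes of sialic acid biology were taken from lists of genes, not by how they moved. Of 8 further Siglec receptors listed, 2 were annotated on the platform and none had a value on all arrays. Cd22, the second Siglec of B cells and a receptor for the product of St6gal1, had values on T1 alone, of -0.862 and -0.604 at its 2 spots, against -1.61 for Siglecg on that array. Mag, a Siglec of myelin, had no value.

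Of 19 sialyltransferases other than St6gal1, 4 were on the platform and 3 had values on all arrays, of which 0 passed by limma over all genes (spots of a gene averaged; 170 of 3462 genes, or 4.91%, passed, 58 higher, 1.68%, and 112 lower, 3.24%). At an unadjusted p under 0.05 there were 2, St3gal4 (higher) and St8sia4 (lower), a threshold that 28.1% of all genes met (12% higher and 16.1% lower). The median of the 3 means was 0.11, against -0.071 over all genes tested.

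St8sia4, which builds polysialic acid on proteins such as the neural cell adhesion molecule, had -0.484, -0.283 and -0.306 on T1, T2 and T3 at its first spot and -0.363, -0.313 and -0.664 at its second. All 6 values were below 0 and above every value of St6gal1. Averaged over spots its mean was -0.40 ± 0.095 (SD, n = 3; adjusted p = 0.0577), and without T1 it passed (-0.39, adjusted p = 0.0445), as did 18% of all genes then. St3gal4, which attaches sialic acid to galactose in the alternative alpha-2,3 linkage, had 0.325, 0.256 and 0.227, all above 0 (mean 0.27 ± 0.05, adjusted p = 0.125). St3gal2, an alpha-2,3 enzyme that acts on O-linked glycans and gangliosides, had 0.429, -0.11 and 0.023, on both sides of 0 (mean 0.11 ± 0.28, adjusted p = 0.577). None of the other 3 measured sialyltransferases reached the range of St6gal1 on any array. This difference was not tested, because St6gal1 was chosen for its ratio.

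The supply of sialic acid was represented by 2 of 13 listed genes, and 0 passed, also at an unadjusted p under 0.05. Nans, the synthase that forms sialic acid in the cytosol, had -0.007, -0.033 and 0.112 on T1, T2 and T3 (mean 0.024 ± 0.077, adjusted p = 0.895). Cmas, which activates sialic acid to its CMP form, the donor that St6gal1 uses, had 0.11, 0.169 and 0.082 averaged over its 2 spots (mean 0.12 ± 0.044, adjusted p = 0.437). With spots averaged, both stayed within 0.169 of a log2 ratio of 0 on each array. The single Cmas spots had 0.251, 0.078 and 0.175 on T1, T2 and T3, and -0.031, 0.26 and -0.011. Siae, an esterase that removes acetyl groups from sialic acid, had a value on T1 alone, of -0.047.

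Upstream of sialylation, 7 of 19 genes that trim, branch and galactosylate N-glycans were measured (median -0.082). Of these 1 was lower (3.24% of all genes were), 0 higher (1.68%) and 6 not past the threshold. At an unadjusted p under 0.05 there were 2, Mgat1 (lower) and Slc35a2 (higher), against 28.1% of all genes in either direction. The called gene was Mgat1, the N-acetylglucosaminyltransferase that opens the way to complex N-glycans, on which St6gal1 acts. It had -0.463 for T1, -0.961 for T2 and -0.367 for T3, all below 0, with a mean of -0.60 ± 0.32 (1.51-fold lower, adjusted p = 0.0494, n = 3). Mgat1 no longer passed without T2 (adjusted p = 0.227), without T3 (0.241), after median centring (0.0635) and with spots that had 2 values admitted (0.0518), and its mean was 0.044 with the sign of T2 turned. Slc35a2, the carrier of UDP-galactose into the Golgi, had a mean of 0.35 ± 0.36 (adjusted p = 0.157). Without T1 its mean was 0.55 (adjusted p = 0.00407), and 8.38% of all genes were then called higher. The mannosidase Man1a had -0.18 ± 0.15 (adjusted p = 0.299).

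**Figure D3:**
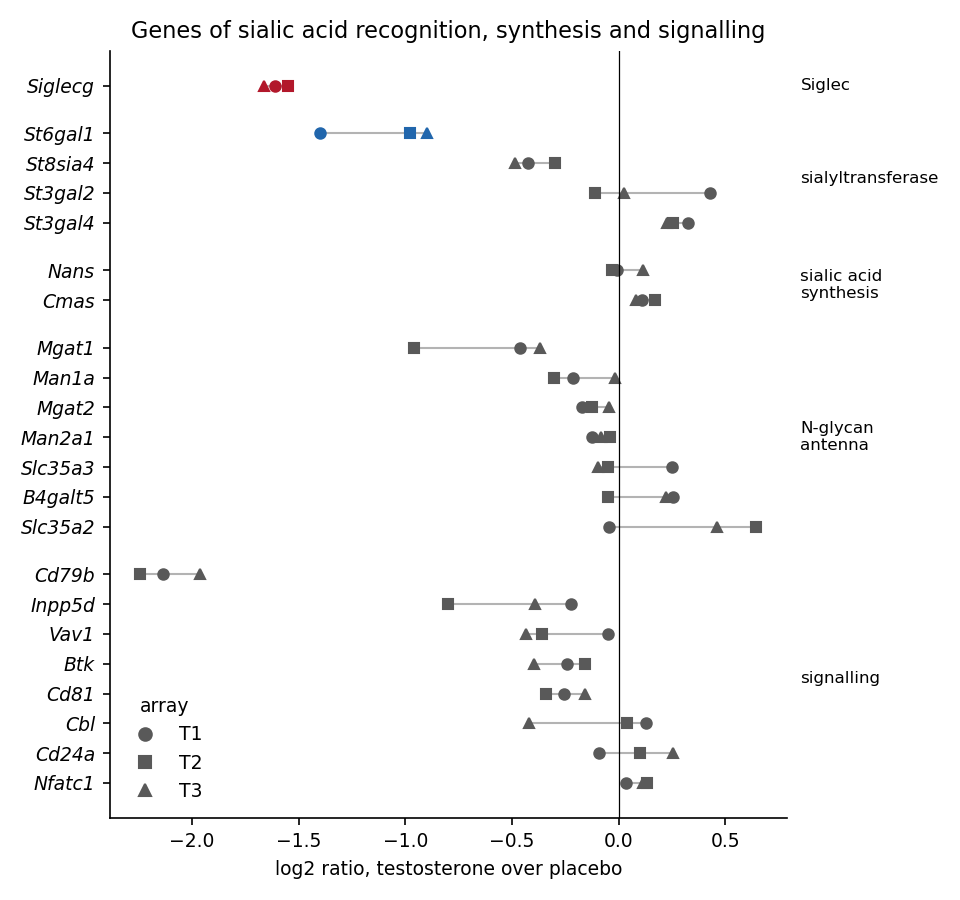
Log2 ratio of testosterone to placebo on T1 (circles), T2 (squares) and T3 (triangles) for every gene of the 5 pathway lists with a value on all arrays; grey lines join the lowest and highest array. Siglecg, St6gal1 and Cd79b lie at or below -0.899 on all 3 arrays, while the other sialyltransferases lie between -0.485 and 0.429.

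Around Siglec-G in the cell, 8 of 26 listed ligands, kinases, phosphatases and coreceptors were measured (median -0.26). Of these 1 was lower (3.24% of all genes were), 0 higher (1.68%) and 7 not past the threshold. At an unadjusted p under 0.05 there were 5, all lower (Cd79b, Inpp5d, Btk, Cd81 and Vav1), against 16.1% of all genes. Without T1, 3 passed, all lower (Cd79b, Inpp5d and Vav1), against 9.62% of all genes then called lower. Cd79b, a signal-transducing chain of the B-cell receptor, which Siglec-G restrains, was the lower one (-2.11 ± 0.14, 4.32-fold, adjusted p = 7.73e-05, n = 3). The same gene is also on the list of B-lineage markers below, so it is counted in both lists. Inpp5d, the inositol phosphatase SHIP1 of inhibitory receptors, had -0.221, -0.801 and -0.393 on T1, T2 and T3 (mean -0.47 ± 0.30, adjusted p = 0.0703). Btk, a kinase downstream of the B-cell receptor, had -0.24, -0.159 and -0.397 (mean -0.27 ± 0.12, adjusted p = 0.145). Both were below 0 on every array and less so than the 2 genes described here. Cd24a, whose sialylated protein is a ligand of Siglec-G, had -0.094, 0.101 and 0.253 averaged over its 2 spots (mean 0.087 ± 0.17, adjusted p = 0.622), a gene named after its values were seen.

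Markers of B cells moved with the 2 genes. Of 8 measured genes among 19 listed B-lineage markers, 7 were lower and 0 higher, against 3.24% of all genes tested called lower, and their median was -2.27 for T1, -2.29 for T2 and -1.81 for T3. This list was drawn up with earlier results known and is no independent evidence, and the part of B-cell numbers in the ratios of Siglecg and St6gal1 was not tested. Ordered by mean ratio from the lowest, the markers were Vpreb3 (-2.98), Fcrla (-2.51), Bach2 (-2.47), Cd79b (-2.11), Pou2af1 (-2.07), Il7r (-1.84), Blk (-1.56) and Ms4a1 (-0.25, adjusted p = 0.292), the last of which did not pass. Of the 7 that passed, Il7r alone was lost when 1 array was left out (adjusted p = 0.0611 without T2), and 0 passed with the sign of T2 turned. Siglecg stood between Il7r and Blk, and St6gal1 between Blk and Ms4a1. The array values of Siglecg (-1.66 to -1.55) overlapped those of Pou2af1, Il7r and Blk, whereas Vpreb3, Fcrla, Bach2 and Cd79b lay below it and Ms4a1 above it without overlap. Those of St6gal1 (-1.40 to -0.899) overlapped Il7r alone, since Il7r reached -1.09 on T3, and were apart from the other 7. These comparisons use spots with a value on all arrays. Fcrla had another spot without a value on T2, at -1.779 for T1 and -1.455 for T3, on both sides of Siglecg. With spots of at least 2 values admitted, the mean of Fcrla was -2.24. Blnk, another listed marker without a value on T3, had -0.495 for T1 and -0.869 for T2, above both genes on those arrays. It did not pass with such spots admitted, where 7 of 9 measured markers were lower.

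Markers of other cells that can express St6gal1 or fill the marrow gave 0 calls among 11 measured by limma over all 3 arrays, which rested on T1. Without T1, 5 passed. The 4 erythroid genes Fech, Hbb-b1, Prdx2 and Urod were higher (8.38% of all genes were then called higher). Mmp9 was lower (9.62% of all genes were then called lower). At an unadjusted p under 0.05 over all 3 arrays there were 3, the erythroid genes Hbb-b1, Fech and Urod, all higher. They were 3 of the 4 erythroid genes measured. Of all genes, 12% were higher at this threshold and 28.1% passed it in either direction. The plasma cell genes Xbp1 and Jchain, 2 of 6 listed, had 0 calls, with Jchain, the joining chain of secreted immunoglobulin, at 0.982 for T1, -1.11 for T2 and 0.553 for T3 and Xbp1, a secretory transcription factor, at -0.16 ± 0.30 (adjusted p = 0.434). Of 4 measured neutrophil and monocyte genes 0 passed, with Itgam at 0.33 ± 0.42 (adjusted p = 0.206), Mmp8 at 0.22 ± 0.33 (0.311) and Mmp9 at -0.068 ± 0.70 (0.868; -0.44 and 0.0313 without T1), and their median was 0.636 for T1, -0.214 for T2 and -0.091 for T3. Of 4 erythroid genes 0 passed over all 3 arrays and 4 without T1 (means from 0.43 to 0.51, adjusted p from 0.00941 to 0.0272), with a median of 0.11 for T1, 0.52 for T2 and 0.37 for T3, among them Hbb-b1 (0.35 ± 0.23, adjusted p = 0.111), Fech (0.36 ± 0.26, 0.114) and Urod (0.38 ± 0.31, 0.118). Fgb, a fibrinogen chain of hepatocytes and the one measured of 8 such markers, had -0.11 ± 0.26 (adjusted p = 0.581). No T or NK cell marker of 11 had a value on all arrays.

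The genes whose ratios most resembled the 2 were found by the root mean square difference of the log2 ratio over the 3 arrays, among 3461 other genes. Nearest to Siglecg was Blk, a B-cell kinase of the Src family, at a distance of 0.082, with -1.64, -1.49 and -1.54 on T1, T2 and T3. It was followed by Lrmp, a lymphoid-restricted membrane protein (distance 0.224, mean -1.53 ± 0.21), Igfbp5, a binding protein of insulin-like growth factors (0.264, -1.57 ± 0.29), Serinc5, a serine incorporator of the cell membrane (0.334, -1.30 ± 0.13), and Ablim1, an actin-binding LIM protein (0.353, -1.37 ± 0.31).

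St6gal1 had closer neighbours than Siglecg, and more spots lay near its mean (30 within 0.25, against 14 for Siglecg, each itself included). Glcci1, a glucocorticoid-induced transcript, lay at a distance of 0.025, with -1.37, -1.01 and -0.89 on T1, T2 and T3, and shared the lower value of T1. Cerk, the ceramide kinase, lay at 0.062 (mean -1.07 ± 0.20), Tcf3, which encodes the E2A transcription factors of early B cells, at 0.078 (-1.03 ± 0.23), and Hes6, a basic helix-loop-helix factor, at 0.114 (-1.10 ± 0.18). The spots of Cerk and St6gal1 lie in the same run of the platform. Siglecg and St6gal1 themselves were 0.563 apart, which made St6gal1 number 22 in the order around Siglecg and Siglecg number 53 in that around St6gal1. With 3 arrays the measure mainly reflects a like mean, so these neighbours are a description of the ratios alone.

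**Figure D4:**
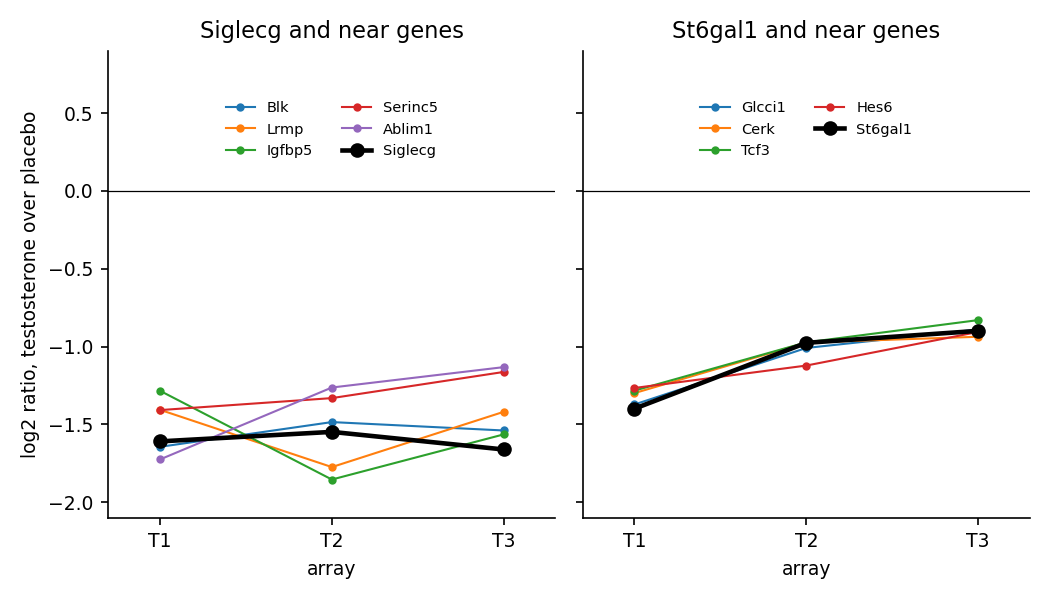
Log2 ratio of testosterone to placebo on T1, T2 and T3 for Siglecg (left, black) and St6gal1 (right, black) with genes near to each by root mean square difference; lines join the values of a gene and imply no order of the arrays. Blk runs closest to Siglecg (distance 0.082) and Glcci1 to St6gal1 (distance 0.025), both St6gal1 and Glcci1 being lower on T1 than on T2 and T3.

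Since both genes were below 0 on each array as deposited, the bases upstream of their annotated starts were searched. The search covered 5 short motifs of B-cell and steroid receptor factors, on both strands. The sequences are those of RefSeq on build GRCm38.p6. Siglecg has 2 starts there, 41 bases apart on the plus strand of chromosome 7, and St6gal1 has 3 on the plus strand of chromosome 16, of which the last lies 64449 bases beyond the second. The array does not say which start a transcript came from. Windows of 250 bases ending just before the start are shown for the first Siglecg start, chr7:43407989-43408238, and for the third St6gal1 start, chr16:23290220-23290469, because these 2 of the 5 windows held a match. Capitals mark the matches.
Siglecg, start 1: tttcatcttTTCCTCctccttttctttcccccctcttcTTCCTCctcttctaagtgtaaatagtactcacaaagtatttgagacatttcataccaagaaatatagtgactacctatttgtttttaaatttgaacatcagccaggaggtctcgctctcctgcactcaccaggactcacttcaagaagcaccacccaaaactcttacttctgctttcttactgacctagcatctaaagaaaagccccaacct
St6gal1, start 3: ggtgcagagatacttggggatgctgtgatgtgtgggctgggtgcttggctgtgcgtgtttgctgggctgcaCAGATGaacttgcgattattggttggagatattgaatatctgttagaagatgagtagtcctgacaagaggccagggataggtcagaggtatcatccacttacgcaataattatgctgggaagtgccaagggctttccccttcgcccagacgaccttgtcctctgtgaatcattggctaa

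The Siglecg window held the letters GAGGAA, a core of sites for the Ets-family factor PU.1, at 2 places on the minus strand (TTCCTC as printed), beginning 241 and 212 bases before the start. The same letters are found in 23.3% of the 32851 windows of this length in the table. The St6gal1 window held CAGNTG, the E-box that E2A proteins bind, as CAGATG 179 bases before the start, as do 44.8% of all windows. The octamer ATGCAAAT (1.60% of all windows), the EBF1 core CCCNNGGG (11.8%) and the hexamer TGTTCT of androgen response elements (16.1%) were in none of the 5 windows. No 2 matches overlapped. The G and C content was 40.8% and 42.8% in the windows of the 2 Siglecg starts and 47.2%, 52.8% and 49.6% in those of St6gal1, against a median of 52.4% in all windows.

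Both means kept their sign under every setting tried, which is no test, because all deposited values of both genes were far below 0. With any single array left out, Siglecg had means from -1.64 to -1.58 and St6gal1 from -1.19 to -0.94. Without T1 the standard deviation of St6gal1 was 0.054, against 0.269 over all 3 arrays. Turning the sign of T2 was the setting that moved both means by more than the spread between pairs.

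**Figure D5:**
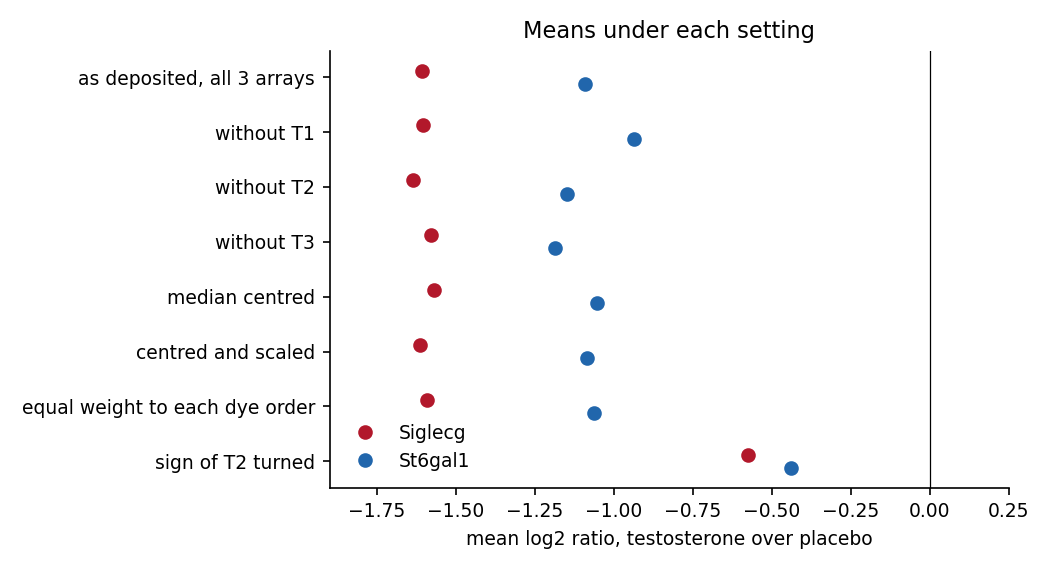
Mean log2 ratio of testosterone to placebo for Siglecg and St6gal1 under each setting: as deposited, without each array, after centring and scaling, with equal weight to each dye order, and with the sign of T2 turned. Apart from the last, where the means are -0.57 and -0.44, Siglecg stays between -1.64 and -1.57 and St6gal1 between -1.19 and -0.94.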

How the data were processed

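Total RNA was copied into aminoallyl cDNA and dyed with Cy3 or Cy5, per the labels' protocols. The authors deposited 1 signed log ratio per spot and array, read here as a log2 ratio of testosterone to placebo. The base is inferred from the range, and with a natural log every fold would be larger. Nothing used here states the scanner, background correction, normalization or filter. Values were used as deposited, and spot brightness was not analysed here. The number of arrays limits the precision, and p-values measure the spread between 3 mouse pairs. Of 11552 spots, 8050 named 1 gene, of which 7880 matched the RefSeq gene table (GRCm38.p6) by Entrez ID. Control or non-mouse spots were left out, 12 of them with 3 values. That exclusion and the naming by Entrez ID were revised after first results had been seen, because a wider exclusion had also removed mouse transcripts with letter-and-number names. The promoter motifs were also chosen after the data were seen. Spots with 3 values were tested against 0 in limma 3.58.1 (R 4.3.3) by a moderated two-sided test (lmFit, eBayes), called at a Benjamini-Hochberg adjusted p under 0.05, and genes likewise after averaging their spots. The fit was tested on simulated data. Named are both genes, every measured Siglec, sialyltransferase and sialic acid gene, the called genes and the 3 of smallest p of each other list, and the 5 nearest genes, of which 1 is not reported here. The members and lists were chosen with earlier results of these data known. Alternatives were the sign of T2, each array left out, centring, scaling, robust eBayes and 2 values per spot.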

Additional observations from a re-analysis of the deposited data

How the results depend on the processing

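The mean ratios of Siglecg and St6gal1 kept their sign under all 7 other settings fixed at the start and moved by less than the SD between pairs under 6 of them. The exception was turning the sign of T2, which gave -0.57 and -0.44. The kept sign is no test, because all deposited values of both genes were far below 0. Admitting spots with 2 values could not move the means, because each gene has 1 spot with 3 values. Without single arrays the mean ran from -1.64 to -1.58 for Siglecg and from -1.19 to -0.94 for St6gal1. The 171 called spots became 0 with T2 turned, 57 after median centring and 816 after centring and scaling, and between 38 and 1095 without single arrays (1095 without T1, 84 without T2, 38 without T3). The share of higher spots was 68 of 171 as deposited, 4 of 57 after centring and 595 of 816 after scaling. The 2 called pathway genes other than St6gal1 and Siglecg (Cd79b and Mgat1) became 0 with T2 turned, 1 after median centring, 1 with at least 2 values per spot, and 1 to 6 without single arrays (6 without T1, which adds Inpp5d, Slc35a2, St8sia4 and Vav1, 1 without T2 and 1 without T3). The 7 called marker genes, Cd79b again among them, became 0 with T2 turned and 6 to 12 without single arrays. The 5 gained without T1 were Fech, Hbb-b1, Prdx2, Urod and Mmp9, none of them B-lineage markers. The cause of these changes was not tested. The wider exclusion of control spots used at first, with genes also named without an Entrez match, left out 95 spots and called 170 of 6030 spots and 178 of 3484 genes, against 171 of 6039 and 170 of 3462 as reported. It called the same 2 pathway and 7 marker genes. No paired analysis was possible because the study has a single group, each value of which is already a ratio within a matched pair. With 3 arrays and 1 spot per gene, errors of a spot that recur on each array could not be seen.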
